A study of Mus musculus with 2 samples.

Results

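The cells described here are the endothelial cells of the mouse dorsal aorta region that carried the class name Endo (other), which stands beside arterial, venous, hemogenic and cluster classes in the deposited cell annotation. They were chosen by that name alone, and 3030 of 8405 annotated cells had it. Of these, 1624 of 4451 cells came from the WT library, a share of 36.5% (exact binomial 95% interval 35.1 to 37.9), and 1406 of 3954 from the SP3KO library, a share of 35.6% (34.1 to 37.1). The share differed by -0.93 percentage points between the libraries, with an interval of -3.00 to 1.15 that held 0. The sources say nothing more of what the name stands for.

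Both libraries came from embryos at embryonic day 10.5 (E10.5) of the strain C57Bl6/J x B6129SF1/J, taken from matings of Sp3+/- females with Sp3+/- males, so that WT and SP3KO embryos shared their parents' genotype. Dorsal aorta regions were dissociated with collagenase, stained for Ter119, ESAM, CD41, CD144 and CD31 and with DAPI, combined within each genotype and sorted for endothelium. Transcripts were counted as unique molecular identifiers (UMIs) with the 10x Genomics 3' v3 chemistry. There was 1 library per genotype, from an unstated number of embryos, so an effect of genotype, of the embryos that were pooled and of the library cannot be told apart, and no test between WT and SP3KO was possible. Every interval below is a 95% interval that covers counting error only. Levels are summed UMIs of a class divided by all its UMIs, as counts per 1000000 UMIs (CPM), and differences are log2 ratios of such levels. The annotated Endo (other) cells held 31918875 UMIs in WT and 27328639 in SP3KO, with medians per cell of 17108 and 17512.5 UMIs and of 3966.5 and 4016.5 genes. The median share of mitochondrial UMIs was 5.03% in WT and 4.61% in SP3KO, and 27.0% and 21.98% of the cells were above 10%. The libraries shared 5 cell barcodes, of which 1 lay in Endo (other) of both.

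Endothelial cells of this stage are sorted into arteries and veins, in which flow, VEGF and Notch signalling favour arterial genes and the transcription factor NR2F2 maintains venous fate. Lymphatic endothelium buds from veins under the control of PROX1, and a small arterial fraction becomes hemogenic endothelium and passes through the endothelial-to-hematopoietic transition (EHT). SP3 is a zinc-finger transcription factor related to SP1 that binds the GC box, a short GC-rich motif of many promoters. In the sums below, arterial cells are the Wnt-high and Wnt-low arterial endothelium (AE), venous cells the Wnt-high and Wnt-low venous endothelium (VE), and EHT cells the conflux AE, pre-hemogenic endothelium (pre-HE), hemogenic endothelium (HE) and intra-aortic clusters (IAC).

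Because SP3 reads GC boxes, the promoters of the genes that differed most between the libraries were searched for the motif GGGCGG and its reverse complement CCGCCC, with overlapping matches counted. Of the 12 genes that were highest in SP3KO over WT, 9 had a RefSeq promoter on GRCm38.p6, from 250 bases before the start to 50 after it, and 4 of these (44.4%) held a GC box. Of the 12 that were lowest, 9 had a promoter and 6 of these (66.7%) held a GC box. Among all genes with an entry, 10324 of 27025 (38.2%) did. Many of those genes had too few UMIs in Endo (other) to be ranked. The share among the ranked genes was not counted, so 38.2% is no baseline for the high or the low genes. A match describes the letters and not a bound site. The promoters of Snhg18, a host gene of small nucleolar RNAs, and of Camk1, a calcium and calmodulin-dependent kinase, are shown because both genes were among the lowest in SP3KO while their promoters stood at opposite ends of the search, with 5 GC boxes and with 0. They are printed from 5′ to 3′ with GC boxes in capitals, Snhg18 from chr15:32244613-32244912 and Camk1 from chr6:113343873-113344172, both on the minus strand.
Snhg18: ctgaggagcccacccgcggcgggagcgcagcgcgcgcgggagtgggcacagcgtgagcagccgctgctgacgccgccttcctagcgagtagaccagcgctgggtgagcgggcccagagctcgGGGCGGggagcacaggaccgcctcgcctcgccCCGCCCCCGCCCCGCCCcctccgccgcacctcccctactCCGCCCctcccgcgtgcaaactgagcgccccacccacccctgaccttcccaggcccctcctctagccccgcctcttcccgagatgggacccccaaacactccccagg
Camk1: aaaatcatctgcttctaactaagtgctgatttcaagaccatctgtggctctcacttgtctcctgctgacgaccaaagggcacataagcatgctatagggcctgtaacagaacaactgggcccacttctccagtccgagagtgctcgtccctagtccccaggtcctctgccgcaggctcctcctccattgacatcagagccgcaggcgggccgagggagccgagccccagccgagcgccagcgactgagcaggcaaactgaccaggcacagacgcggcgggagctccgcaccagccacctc
The level of Snhg18 was 11.5 CPM in WT and 3.73 CPM in SP3KO, and that of Camk1 was 10.7 and 3.66 CPM. Both genes were chosen for their low ratios, so nothing on the motif follows from them. For Camk1 the log2 ratio was -1.55, and -0.64 with the sub-clusters described below weighted alike.

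The endothelial markers were present in the class. Pecam1, an adhesion molecule of endothelial junctions, stood at 212 CPM in WT and 213 CPM in SP3KO. Cdh5, the VE-cadherin of those junctions, stood at 509 and 518 CPM, and Kdr, the main VEGF receptor, at 472 and 445 CPM. In arterial cells these genes were higher, at 393 and 377 CPM for Pecam1, 702 and 694 CPM for Cdh5 and 735 and 732 CPM for Kdr. In venous cells they were nearer, at 258 and 240, 543 and 541, and 487 and 491 CPM. Ptprc, the pan-leukocyte CD45, had no UMI in either library, while IAC cells held 69.7 and 86.4 CPM. The floor of 3 UMIs stood at 0.0940 CPM in WT and 0.110 CPM in SP3KO. Runx1, which drives hemogenic fate, stood at 2.22 and 1.94 CPM, against 356 and 242 CPM in HE.

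The class carried a venous profile with little arterial expression. Nr2f2, the venous fate regulator, was measured at 178 CPM in WT and 164 CPM in SP3KO, above venous cells at 108 and 110 CPM and arterial cells at 51.6 and 45.6 CPM. The log2 ratio over venous cells was 0.73 (0.66 to 0.80) in WT and 0.58 (0.51 to 0.65) in SP3KO. Nrp2, a co-receptor for VEGF-C and semaphorins of veins and lymphatics, was 249 and 230 CPM, against 161 CPM in venous cells of either library. Ephb4, the venous receptor for ephrin-B2, was 52.9 and 47.8 CPM, against 39.4 and 36.6 CPM in venous cells. Aplnr, the apelin receptor of veins, was at 187 and 172 CPM and Flt4, a receptor for VEGF-C, at 72.0 and 66.9 CPM, within 0.12 log2 units of venous cells in both libraries.

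Arterial genes were at the other end. Gja4, a connexin of arteries, was 5.61 CPM in WT and 5.85 CPM in SP3KO, against 267 and 244 CPM in arterial and 27.3 and 16.5 CPM in venous cells. Dll4, the arterial Notch ligand, was 5.107 and 5.599 CPM, against 55.7 and 54.4 CPM in arterial cells. Efnb2, the ephrin-B2 ligand, was 38.6 and 39.9 CPM, against 152 and 145 CPM. Over the list of arterial genes, 0 of 15 measured members were above arterial cells and the median log2 ratio was -1.97 in WT and -1.99 in SP3KO, where the median of all genes was -0.07 and -0.06. Against venous cells, too, 0 of 14 arterial genes were above, with medians of -0.64 and -0.48 beside 0.01 for all genes in both libraries. The venous list had 5 of 6 members above arterial cells in both libraries and 4 and 5 of 6 above venous cells, with medians over venous cells of 0.33 and 0.32.

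Across 10987 genes the levels of the class were most like those of Wnt-low VE. Pearson's r of the log2 levels across genes was 0.992 in WT and 0.993 in SP3KO with Wnt-low VE, 0.984 and 0.986 with Wnt-high VE, 0.971 in both libraries with Wnt-low AE and 0.953 and 0.952 with Wnt-high AE. With the EHT classes it ran from 0.875 for IAC to 0.916 for HE in WT and from 0.863 for IAC to 0.907 for conflux AE in SP3KO. Genes are not independent replicates, the classes shared 1 library, and they differed in depth, from 15029997 UMIs in Wnt-low VE of WT to 891135 UMIs in pre-HE of SP3KO, so the order is a description. Per cell, the score of the study's arterial genes minus its venous genes had a median of -0.71 in WT and -0.70 in SP3KO, below -0.52 and -0.54 in Wnt-low VE. The score was above 0 in 22 of 1385 cells (1.59%) and in 30 of 1235 cells (2.43%). In Wnt-low VE it was above 0 in 4.13% and 2.72% of the cells. Most arterial cells were below 0 as well. The score was above 0 in 22.7% and 22.9% of Wnt-high AE and in 21.3% and 23.3% of Wnt-low AE cells.

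**Figure D1:**
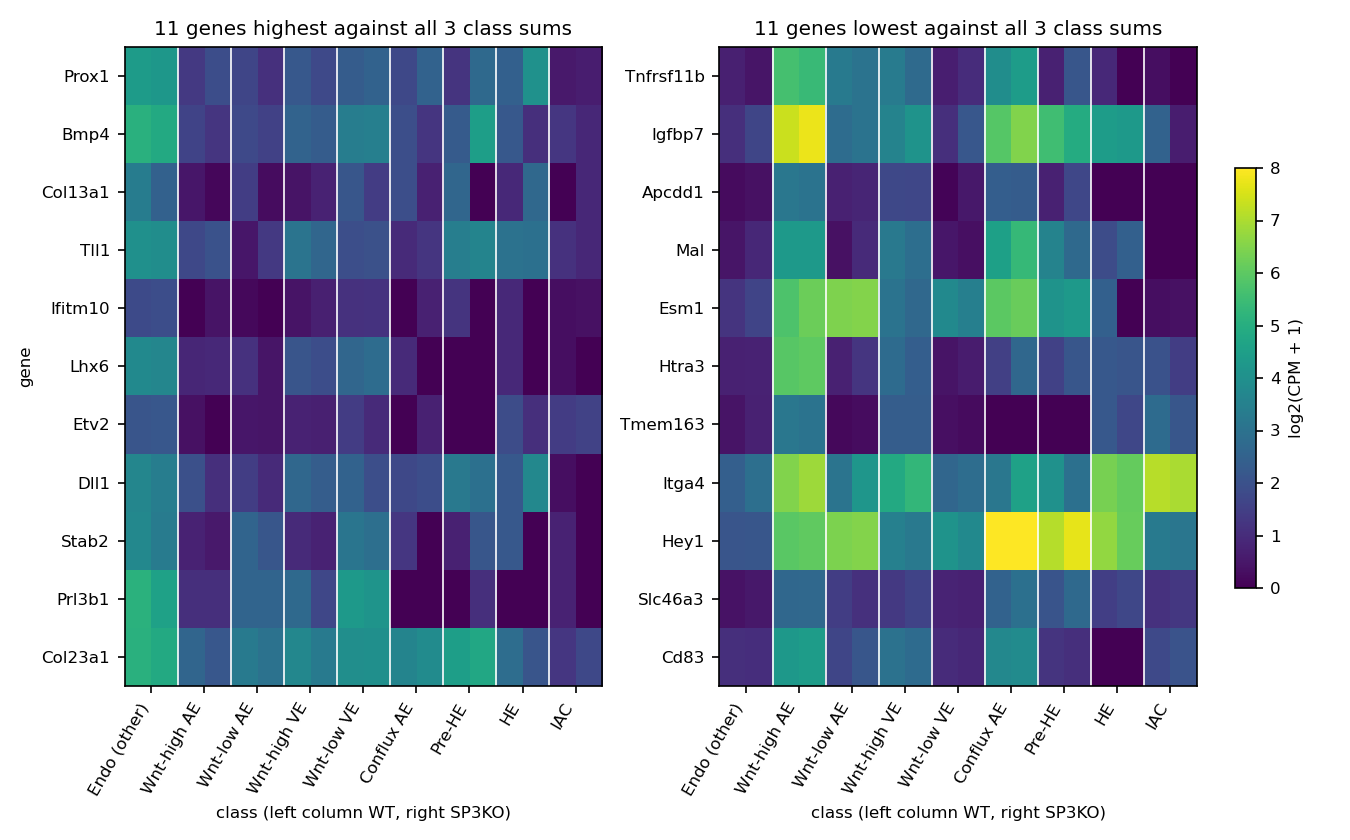
Levels of 11 genes that stood highest and 11 that stood lowest in Endo (other) against all 3 class sums, as log2(CPM + 1) by colour, brighter for higher levels. Each class has a WT column on the left and an SP3KO column on the right. Lhx6 is brightest in Endo (other), with Wnt-low VE next, while Bmp4 and Col23a1 also stand out in pre-HE of SP3KO.

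Since the authors named the classes from the expression of the same cells, a gene that differs between classes describes the class and is no test of it. All 3 comparisons also shared the Endo (other) cells. At a log2 ratio above 1 or below -1, 260 of 10987 genes (2.37%) were higher than in arterial cells in WT and 336 (3.06%) in SP3KO, and 668 (6.08%) and 710 (6.46%) were lower. Against venous cells 153 (1.39%) and 139 (1.27%) were higher and 118 (1.07%) and 136 (1.24%) lower. Against EHT cells 398 (3.62%) and 466 (4.24%) were higher and 1044 (9.5%) and 1119 (10.2%) lower. Past the threshold against all sums in both libraries, 22 genes (0.2%) were higher and 45 (0.41%) lower.

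Among the genes highest in the class, several encode transcription factors. Prox1, the regulator of lymphatic identity, was 20.1 CPM in WT and 17.9 CPM in SP3KO, against 3.88 and 3.62 CPM in venous, 1.83 and 2.12 CPM in arterial and 1.55 and 4.15 CPM in EHT cells. Its log2 ratio over venous cells was 2.37 (2.06 to 2.70) in WT and 2.30 (1.97 to 2.66) in SP3KO. Lhx6, a LIM homeobox factor, was 12.9 and 11.8 CPM, against 4.56 and 4.45 CPM in venous cells. Etv2, the ETS factor that specifies early endothelium, was 3.29 and 3.48 CPM, against 1.31 and 0.785 CPM in venous cells.

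Secreted and surface proteins made up most of the others. Bmp4, a ligand of the TGF-beta family, was 32.4 CPM in WT and 27.8 CPM in SP3KO, against 7.72 and 7.07 CPM in venous, 2.24 and 1.55 CPM in arterial and 2.44 and 3.70 CPM in EHT cells. Tll1, a metalloprotease that cleaves the BMP antagonist chordin, was 15.3 and 14.2 CPM, against 4.51 and 4.06 CPM in venous cells. Dll1, a Notch ligand, was 11.9 and 9.55 CPM, against 4.98 and 3.45 CPM in venous and 2.31 and 1.06 CPM in arterial cells, the reverse of Dll4. Stab2, a hyaluronan scavenger receptor of sinusoids and lymphatics, was 12.4 and 9.04 CPM, against 5.23 and 3.75 CPM in venous cells. Col23a1 and Col13a1, both transmembrane collagens, were 32.6 and 28.2 CPM and 9.24 and 4.54 CPM, against 13.6 and 11.9 CPM and 2.28 and 1.22 CPM in venous cells. Prl3b1, a hormone of the prolactin family known from placenta, was 33.7 and 22.9 CPM in the class and 14.1 and 9.69 CPM in venous cells. Ifitm10 completed the group at 2.51 and 2.71 CPM, against 0.886 and 0.960 CPM in venous cells.

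Single EHT classes with few UMIs came near or above the class in SP3KO. There, Prox1 was 15.6 CPM in HE, from 14 UMIs, and Bmp4 21.3 CPM in pre-HE, from 19 UMIs. In the same library Dll1 was 12.3 CPM in HE, above its 9.55 CPM in the class, and Col13a1 5.58 CPM, above 4.54 CPM, from 11 and 5 UMIs.

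Most cells of the class held no UMI of these genes. With every cell thinned to 5000 UMIs, which 1385 WT and 1235 SP3KO cells allowed, a Prox1 UMI was found in 6.21% and 4.45% of the cells, against 1.82% and 1.27% in venous cells and 0.895% and 0.756% in arterial cells. Before thinning the Endo (other) shares were 12.4% and 11.2%. Bmp4 was found in 13.4% and 12.2% of thinned cells (33.2% and 29.7% before thinning), against 4.43% and 2.99% in venous cells. After thinning, IAC cells held Prox1 and Bmp4 in 0 of 126 cells in WT and 0 of 103 in SP3KO. These counts allow shares of up to 2.89% and 3.52%. Before thinning Prox1 was found in 1.56% and 1.87% of IAC cells, and Bmp4 in 4.69% and 2.80%. IAC cells were deeper, with medians of 31009 and 30343 UMIs, so thinning took away more of their UMIs. They therefore set no background of free RNA for the other classes.

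Most of the genes lowest in the class were at their highest in arterial cells. Igfbp7, a secreted protein that binds insulin-like growth factors, was 1.13 CPM in WT and 2.20 CPM in SP3KO, against 84.0 and 139 CPM in arterial and 4.77 and 9.73 CPM in venous cells. Esm1, a proteoglycan secreted by tip cells, was 1.32 and 2.12 CPM, against 69.6 and 79.5 CPM in arterial and 10.8 and 7.72 CPM in venous cells. Hey1, a Notch target and transcriptional repressor, was 3.35 and 3.44 CPM, against 72.7 and 74.8 CPM in arterial, 14.0 and 10.7 CPM in venous and 105 and 95.9 CPM in EHT cells. Tnfrsf11b, the decoy receptor osteoprotegerin, was 0.627 and 0.366 CPM, from 20 and 10 UMIs, against 28.7 and 28.8 CPM in arterial cells. Itga4, the integrin alpha 4 chain, was 4.32 and 6.55 CPM, against 47.8 and 77.4 CPM in arterial and 79.8 and 79.4 CPM in EHT cells. Htra3, a secreted serine protease, was 0.658 and 0.695 CPM, against 30.1 and 40.4 CPM in arterial cells. The remaining genes of the group, Apcdd1, Mal, Tmem163, Slc46a3 and Cd83, were between 0.188 and 1.13 CPM in the class.

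Wnt target, basement membrane and tip cell lists were lower than in arterial cells as a whole. The Wnt target list had 2 of 9 members above arterial cells in either library, with medians of -1.38 in WT and -1.41 in SP3KO. Of its members, Lef1, a nuclear partner of beta-catenin, was 47.4 and 52.5 CPM, against 172 and 182 CPM in Wnt-high AE. Nkd1, a feedback inhibitor of Wnt signalling, was 7.24 and 8.64 CPM, against 90.2 and 130 CPM there. The sum of the Wnt target list, 411 and 435 CPM, was nonetheless above Wnt-low AE, at 372 and 376 CPM, and above EHT cells, at 112 and 113 CPM. The basement membrane list was below arterial cells in 12 of 12 members and summed to 2295 CPM in WT and 2371 CPM in SP3KO, against 4818 and 5021 CPM. Its most abundant collagen, Col4a1, was 584 and 599 CPM in the class and 1173 and 1227 CPM in arterial cells. The tip cell list summed to 93.7 and 115 CPM, against 352 and 365 CPM in arterial and 185 and 187 CPM in venous cells.

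Lymphatic, sinusoid, anterior HOX and S phase lists were higher in the class than in arterial cells. Lymphatic genes summed to 36.2 CPM in WT and 25.3 CPM in SP3KO, against 5.78 and 5.76 CPM in venous cells and 22.9 and 28.9 CPM in EHT cells. Of the EHT classes, HE was above the class, at 43.6 and 38.0 CPM, and IAC was at 28.0 and 40.5 CPM. Prox1 gave 642 and Lyve1 457 of the 1157 lymphatic UMIs of the class in WT. Sinusoid genes, among them Stab1 at 97.7 and 86.6 CPM, summed to 148 and 124 CPM, against 92.7 and 90.2 CPM in venous cells, with 6 of 6 measured members above venous and arterial cells. The sinusoid sum was higher in pre-HE, at 154 and 186 CPM. The anterior HOX genes were above both arterial and venous cells in 9 of 9 measured members in both libraries, with medians over venous cells of 0.42 and 0.38. S phase genes were above arterial cells in 19 of 19 members, with medians of 0.44 and 0.73, and near venous cells, with medians of 0.06 and 0.10.

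**Figure D2:**
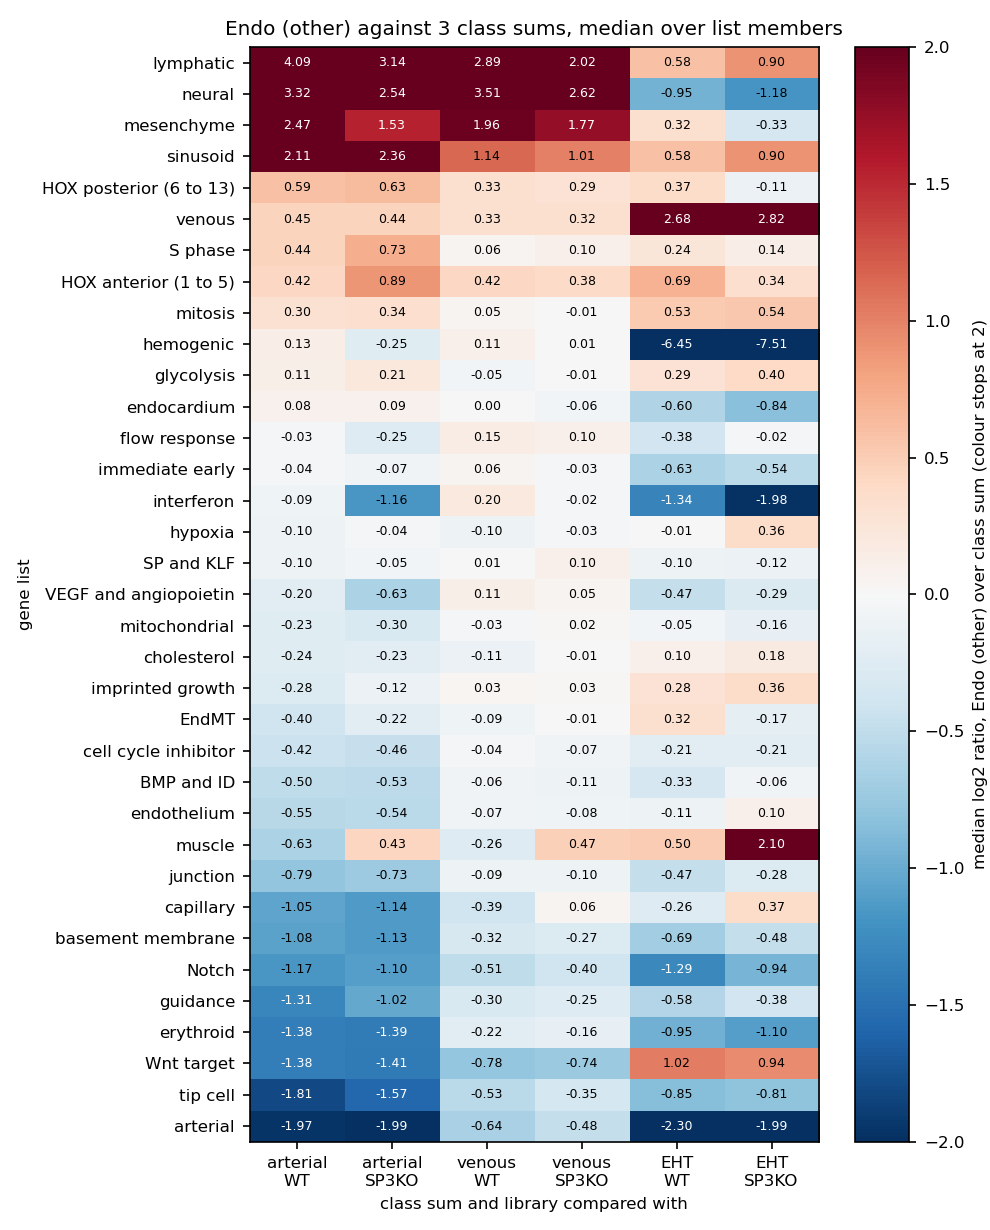
Median log2 ratio of Endo (other) over arterial, venous and EHT cells for each gene list, in WT and SP3KO, by colour, which stops at 2 in either direction. Arterial, tip cell and basement membrane lists are below 0 against arterial and venous cells, and the venous and sinusoid lists are above 0.

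Clustering of the 3030 cells after removal of library means gave 8 sub-clusters, each of which held cells of both libraries, at least 12 from WT and 16 from SP3KO. Their defining genes describe them and were not tested. Sub-clusters 1, 2 and 3, of 678, 668 and 482 cells, had median depths of 21754, 28471.5 and 25436 UMIs. Sub-cluster 2 was led by mitosis genes such as Pif1, Nusap1 and Prc1, with Nusap1, a spindle protein, at 136 CPM against 40.0 CPM in the other cells. Sub-cluster 3 was led by Pf4, of the megakaryocyte list, at 7.48 CPM against 2.25 CPM in the other cells. S phase genes, among them Ccne1, Ung and E2f8, were also among its leading genes. Sub-cluster 4, of 476 cells, had a median of 5017 UMIs and 22.1% mitochondrial UMIs and was led by mitochondrial transcripts. Sub-cluster 5, of 463 cells, had 7791 UMIs and 5.85%. Xist, the RNA of the inactive X chromosome, stood at 1520 CPM in sub-cluster 4 and 5.80 CPM in sub-cluster 5. Y-linked genes were also highest in sub-cluster 4, at 91.1 CPM, and lowest in sub-cluster 5, at 27.9 CPM.

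The 3 smallest sub-clusters were led by other genes. Sub-cluster 6, of 181 cells, was led by Zic2, Zic5, Foxl2 and Car2 and held Lef1 at 91.2 CPM and Tcf7, also a partner of beta-catenin, at 28.7 CPM. Sub-cluster 7, of 54 cells, held Lyve1, a hyaluronan receptor of lymphatic endothelium, at 188 CPM, Prox1 at 184 CPM, Nr2f2 at 398 CPM, Vwf at 121 CPM and Edn1, the peptide endothelin, at 239 CPM. These 54 cells carried 17.0% of the Prox1 and 32.7% of the Lyve1 UMIs of the class, and Pdpn, a later lymphatic marker, had no UMI in them. Sub-cluster 8, of 28 cells, held neural genes such as Tubb3 at 599 CPM, Elavl3 at 238 CPM and Sox2 at 215 CPM, while its endothelial list summed to 459 CPM. It went against the class name in that the neural list summed to 1536 CPM. Under other clustering settings, 44 to 53 cells of sub-cluster 7 and 27 or 28 of sub-cluster 8 stayed together, while the large ones split more, down to 395 of 678 cells of sub-cluster 1, 364 of 668 of sub-cluster 2 and 239 of 482 of sub-cluster 3.

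**Figure D3:**
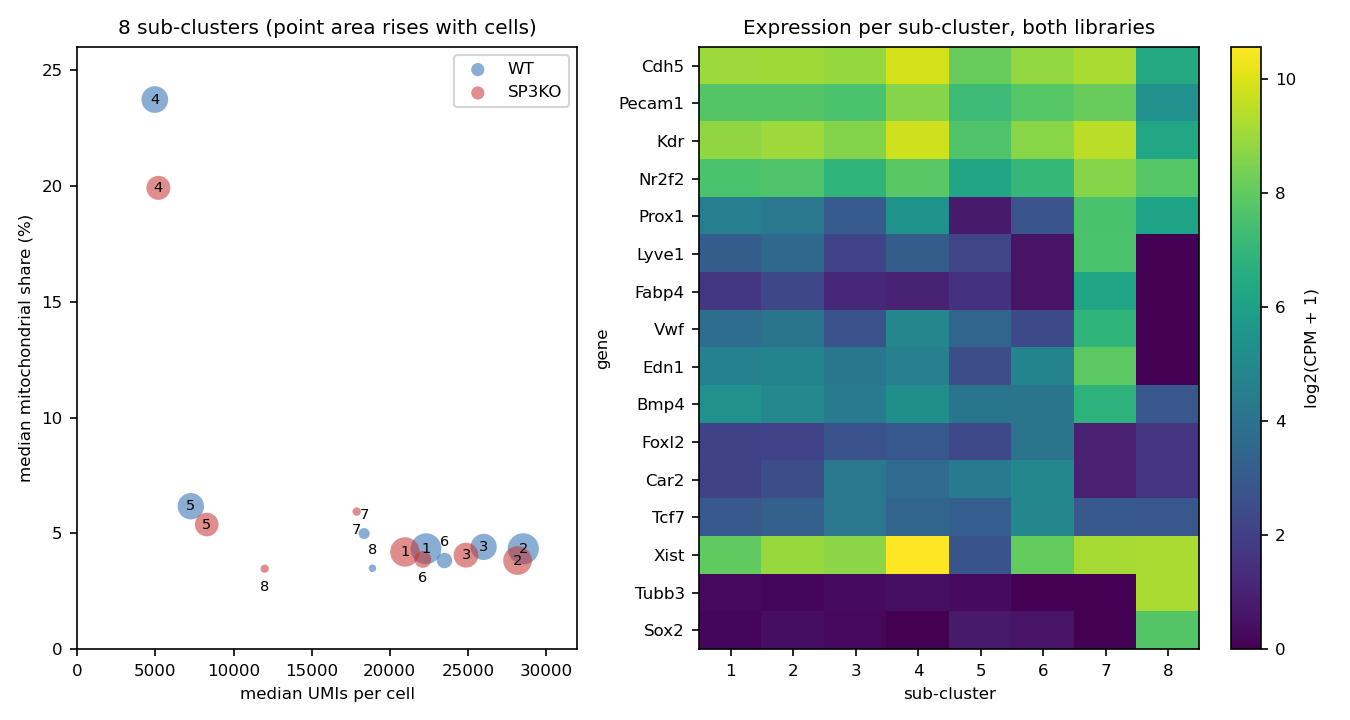
Left, median UMIs per cell against median mitochondrial share (%) for each sub-cluster of Endo (other), with WT in blue, SP3KO in red and circle area rising with the number of cells. Right, levels of 16 genes as log2(CPM + 1) by sub-cluster. Sub-cluster 4 stands apart on the left by its high mitochondrial share, and sub-clusters 7 and 8 on the right by Lyve1 and Prox1 and by neural genes.

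Between the libraries, Sp3 itself was lower in SP3KO but still present. It was counted 1546 times in WT and 997 times in SP3KO, or 48.4 CPM (46.1 to 50.9) and 36.5 CPM (34.3 to 38.8), a log2 ratio of -0.41 (-0.53 to -0.29). In arterial, venous and EHT cells the ratio was -0.39, -0.36 and -0.37. Within the class it was below 0 in 6 of 8 sub-clusters and above 0 in sub-cluster 5, at 0.55 (0.00 to 1.11), and in sub-cluster 8, at 0.18 (-0.90 to 1.26). The sources used here do not give the part of the gene that was deleted, and a 3' count can include transcripts of a disrupted allele, so the level does not check the label. Sp3 lies on chromosome 2 from 72936430 to 72980446 (GRCm38.p6).

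At a log2 ratio above 0.5, 68 of 9454 genes (0.719%) were higher in SP3KO, and below -0.5, 198 (2.09%) were lower, so that 266 (2.81%) were past the threshold in either direction. Over these genes the median log2 ratio was -0.01, and the central 95% of genes lay between -0.46 and 0.32. With each cell weighted alike 106 genes were higher, and with cells that held 3 or more UMIs of other cell types' markers left out 105. Thinning each cell to 5000 UMIs gave 228 higher and 403 lower genes, and weighting the sub-clusters alike 221 and 401. The genes with the most extreme ratios in either direction are described next. They were chosen by that ratio, so their values are a description.

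Slc2a3, the high-affinity glucose transporter GLUT3, had the highest ratio, with 124 UMIs or 3.88 CPM in WT and 356 UMIs or 13.03 CPM in SP3KO, a log2 ratio of 1.75 (1.45 to 2.05). It was higher in SP3KO in each of the 7 sub-clusters that gave a value, and in arterial and venous cells by 1.76 and 1.81. Adm, the vasodilator peptide adrenomedullin, was 2.19 CPM in WT and 4.87 CPM in SP3KO, a ratio of 1.15 (0.72 to 1.59). Foxl2, a forkhead factor of ovary and eyelid, was 3.13 and 6.55 CPM, and Car2, a carbonic anhydrase, 7.36 and 12.8 CPM, with ratios of 1.06 (0.70 to 1.43) and 0.80 (0.56 to 1.04). Both genes also led sub-cluster 6, within which their ratios were 0.01 (-0.74 to 0.76) and 0.48 (-0.07 to 1.05), and Foxl2 was at 0.64 with sub-clusters weighted alike. Each gene was above 0 in all 6 sub-clusters that gave a value. The interval was above 0 in 2 of them for Foxl2 and in 3 for Car2. In sub-cluster 2 their ratios were 1.92 (1.08 to 2.83) and 1.02 (0.38 to 1.68).

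Vill, a villin-like protein, was 3.38 CPM in WT and 9.07 CPM in SP3KO, a ratio of 1.42 (1.09 to 1.76). Cyth4, an exchange factor for ARF GTPases, was 3.82 and 8.197 CPM, a ratio of 1.10 (0.78 to 1.43). Rbm45, an RNA-binding protein, was 9.24 and 19.6 CPM, a ratio of 1.08 (0.88 to 1.29), and was higher in SP3KO in 8 of 8 sub-clusters. Its gene lies 3.43 Mb from Sp3 on chromosome 2. Mospd3, Tsga10 and Gm10093, whose reads may be shared with a near-identical gene copy, had ratios of 0.97, 0.79 and 1.08.

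Contractile genes stood at both ends. Tpm2, a tropomyosin, was among the lowest, with 528 UMIs in WT and 199 in SP3KO, while others were among the higher genes. Myl9, a regulatory light chain of myosin in smooth muscle and other cells, was 3.73 CPM in WT and 8.96 CPM in SP3KO, a ratio of 1.27 (0.94 to 1.59), which was 0.73 with sub-clusters weighted alike. Against arterial, venous and EHT cells, whose ratios were 0.28, 0.51 and -0.04, this was higher by 0.99 (0.53 to 1.45), 0.76 (0.28 to 1.23) and 1.31 (0.91 to 1.71). Of its 245 UMIs in SP3KO, 43 were in 3 cells. Myl7, the light chain of atrial myosin, was 3.20 and 6.84 CPM, a ratio of 1.10 (0.74 to 1.46), and 65 of its 187 UMIs in SP3KO were in 3 cells, 43 of them in 1. Without cells that held markers of other types the ratio of Myl7 was 0.44, but that marker list holds Myl7. Acta2, the smooth muscle actin, had 8 UMIs in WT and 58 in SP3KO, 51 of them in 3 cells, and Actc1, the cardiac actin, 9 and 49, 37 of them in 3 cells. The muscle marker list summed to 9.46 CPM in WT and 15.8 CPM in SP3KO with all 3 measured members above 0. It holds Myl7, without which it summed to 6.266 and 9.002 CPM, a ratio of 0.52 (0.25 to 0.80), while Myog had 0 and 1 UMI. The smooth muscle and pericyte list of 6 genes summed to 4.64 and 7.03 CPM, with Pdgfrb at 0 in both libraries and Cnn1 at 0 and 1 UMI. Tagln, also in that list, had 100 UMIs in WT and 124 in SP3KO, 42 of the latter in 3 cells. The part of muscle cells in the ratio of Myl9 was not tested.

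Genes lower in SP3KO included Lyve1 and Fabp4. Lyve1 had 457 UMIs or 14.3 CPM in WT and 143 UMIs or 5.23 CPM in SP3KO, a ratio of -1.45 (-1.73 to -1.18). In venous cells its ratio was 0.22, a difference of the class from venous cells of -1.67 (-2.46 to -0.89), and in EHT cells it was -1.76. The UMIs lay in 146 WT and 60 SP3KO cells. Within sub-cluster 7 the ratio was -0.42 (-0.94 to 0.07), without sub-clusters 7 and 8 it was -1.42, and with sub-clusters weighted alike -0.56. Fabp4, a fatty acid binding protein of capillary endothelium, was 5.39 and 1.68 CPM, a ratio of -1.68 (-2.18 to -1.20), where 37 of 172 WT UMIs lay in 3 cells. In arterial cells Fabp4 had a ratio of 0.62. Without sub-clusters 7 and 8 it was -1.21.

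The other genes at this end were lower in arterial and venous cells as well. Snhg18, whose promoter is printed above, had 366 UMIs in 292 WT cells and 102 UMIs in 94 SP3KO cells, a ratio of -1.62 (-1.95 to -1.30). Camk1 had 342 UMIs in 285 cells and 100 UMIs in 86 cells, a ratio of -1.55 (-1.89 to -1.22). Its ratio was below 0, with an interval off 0, in 6 of the 7 sub-clusters that gave a value. In sub-cluster 7 it was 0.73 (-0.66 to 2.04), from 14 and 9 UMIs. Mgst1, a membrane-bound glutathione transferase, was 10.6 and 3.66 CPM, a ratio of -1.54. Apobec3, a cytidine deaminase that restricts retroviruses, was 8.93 and 3.11 CPM, a ratio of -1.52, and stood apart from EHT cells, where its ratio was -0.08, by -1.45 (-1.87 to -1.03). Tpm2, a tropomyosin, was 16.5 and 7.28 CPM, a ratio of -1.18 (-1.43 to -0.95). Aebp1, a secreted matrix protein, and the genes Shc2, Anxa4, Ccdc112 and Ccnb1ip1 had ratios between -1.47 and -1.13.

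**Figure D4:**
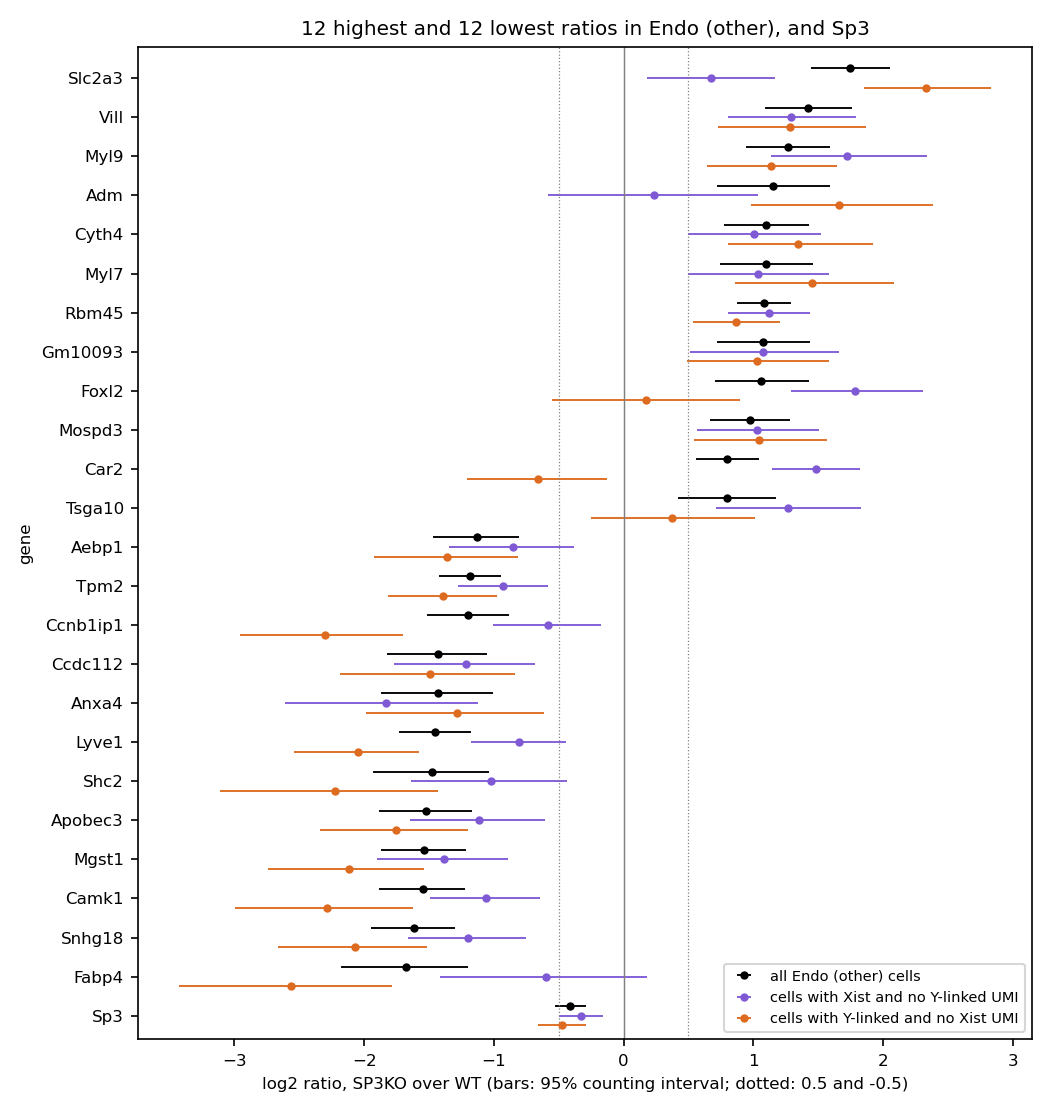
Log2 ratio of SP3KO over WT within Endo (other) for Sp3, the 12 highest and the 12 lowest genes, with 95% intervals of counting error. Black points are all cells, purple points cells with Xist and no Y-linked UMI, orange points cells with Y-linked and no Xist UMI, and dotted lines mark 0.5 and -0.5. Slc2a3 lies near 2.33 in the orange cells and 0.67 in the purple cells, and Car2 lies on opposite sides of 0.

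The embryos of a pool were not sexed in the sources used here, so cells were split by sex-linked UMIs, a comparison added after the data were seen. Cells with Xist and no Y-linked UMI made up 673 of 1624 WT cells (41.4%) and 566 of 1406 SP3KO cells (40.3%), and cells with Y-linked and no Xist UMI 518 (31.9%) and 530 (37.7%), the latter share 5.80 percentage points higher in SP3KO (2.35 to 9.24). The remaining cells held neither kind, 405 in WT and 281 in SP3KO, or both, 28 and 29. Of the 12 highest genes, 8 had intervals off 0 in both kinds of cell and 11 had the same direction in both. Of the 12 lowest, 11 had intervals off 0 in both and 12 had the same direction. Both sets were chosen by their ratio in all cells of the class, of which these cells are parts. A shared direction was thus favoured in advance, and no share over all genes stands beside these counts. Sp3 was -0.33 in Xist cells and -0.47 in Y cells.

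Several genes differed in size between these cells. Slc2a3 was 4.36 CPM in WT and 6.95 CPM in SP3KO among Xist cells, and 3.75 and 18.9 CPM among Y cells, so that the ratio was higher in Y cells by 1.66 (0.97 to 2.36). Adm had a ratio of 0.23 in Xist cells and 1.66 in Y cells. Car2 was 7.28 and 20.3 CPM in Xist cells, a ratio of 1.48 (1.15 to 1.83), but 6.72 and 4.25 CPM in Y cells, a ratio of -0.66 (-1.20 to -0.13). Foxl2 followed Car2, with 1.79 in Xist cells and 0.17 in Y cells. Lyve1 was -0.81 and -2.05, and Camk1 -1.06 and -2.28. Vill and Rbm45 had ratios of 1.29 and 1.12 in Xist cells and 1.28 and 0.87 in Y cells, and their differences had intervals that held 0.

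Among the gene lists, hypoxia and glycolysis were among those higher in SP3KO. Of all genes measured with at least 50 UMIs, 5285 of 11305 were above 0, with a median of -0.01. The hypoxia list had 15 of 17 measured members above 0 and a median of 0.35, and summed to 1845 CPM in WT and 2317 CPM in SP3KO, a log2 ratio of 0.33 (0.31 to 0.34). Slc2a1, the glucose transporter GLUT1, was 102 and 147 CPM, a ratio of 0.53 (0.46 to 0.60). Ldha, which makes lactate from pyruvate, was 895 and 1143 CPM, Pdk1, which keeps pyruvate from the mitochondria, 37.4 and 48.8 CPM, and Ankrd37 20.2 and 30.7 CPM. Vegfa was 6.74 and 8.53 CPM. Car9, a carbonic anhydrase that is a standard hypoxia marker, went the other way with 65 and 28 UMIs, a ratio of -0.99. The glycolysis list had 12 of 15 members above 0 and summed to 5175 and 5988 CPM. In it Hk2, the first enzyme of the pathway, was 11.2 and 16.2 CPM and Pkm, the last, 655 and 795 CPM, while Pfkm was -1.35 (-1.87 to -0.86).

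The size of these sums was uneven between cells. In Xist cells hypoxia genes summed to 1902 CPM in WT and 1976 CPM in SP3KO, a ratio of 0.05 (0.03 to 0.08), and in Y cells to 1835 and 2657 CPM, a ratio of 0.53 (0.51 to 0.56). Glycolysis genes were 5330 and 5240 CPM in Xist cells and 5068 and 6677 CPM in Y cells, ratios of -0.02 and 0.40. The same split gave hypoxia ratios of 0.05 and 0.41 in arterial cells and 0.05 and 0.45 in venous cells. In EHT cells they were 0.27 and 0.22.

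HOX genes were lower in SP3KO. The posterior list, paralogs 6 to 13, had 0 of 14 members above 0 and summed to 196 CPM in WT and 156 CPM in SP3KO, a ratio of -0.32. Hoxa7 was 29.6 and 21.3 CPM, Hoxa9 36.6 and 28.7 CPM and Hoxb9 21.9 and 17.0 CPM. The anterior list had 1 of 10 members above 0 and summed to 161 and 122 CPM, with Hoxa5 at 42.01 and 25.03 CPM and Hoxb5 at 16.7 and 10.1 CPM. In Xist cells the posterior genes summed to 195 and 105 CPM, a ratio of -0.89 (-0.98 to -0.79), and in Y cells to 186 and 209 CPM, a ratio of 0.17 (0.08 to 0.25). The anterior genes had ratios of -0.46 and -0.34, though with the sub-clusters weighted alike the median of their members was 0.01. The sums were lower in SP3KO in other classes as well. In arterial, venous and EHT cells the posterior sum had ratios of -0.51, -0.27 and -0.12. The anterior sum had ratios of -0.46, -0.26 and -0.12 there, and -0.40 in Endo (other).

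Lymphatic and sinusoid sums, which were higher in the class than in arterial and venous cells, were lower in SP3KO. Lyve1 is in both lists and gave a large part of the lymphatic difference, but a smaller part of the sinusoid difference. The lymphatic list had 0 of 3 measured members above 0, with Prox1 at -0.17 (-0.34 to 0.00), and its sum had a ratio of -0.52, against -0.04 in arterial, -0.01 in venous and 0.34 in EHT cells. The sinusoid sum had a ratio of -0.26, against -0.21 in arterial, -0.04 in venous and 0.02 in EHT cells. Without Lyve1 the ratio of the lymphatic sum was -0.13 (-0.29 to 0.03) and that of the sinusoid sum -0.17 (-0.24 to -0.11). Without sub-clusters 7 and 8 the median of the lymphatic members was 0.06. The sinusoid list had 1 of 6 members above 0, with Stab1 at 97.7 and 86.6 CPM and Stab2 at 12.4 and 9.04 CPM, but a median of 0.07 in Xist cells. The tip cell list was higher, with 5 of 6 members above 0 and a sum of 93.7 and 115 CPM, among them Apln, the ligand of Aplnr, at 29.4 and 36.8 CPM and Kcne3, a potassium channel subunit, at 21.8 and 31.9 CPM. Its sum differed from arterial, venous and EHT cells by 0.24, 0.28 and 0.40. Of the immediate early genes, 2 of 14 were above 0, with Fos at 76.2 and 50.1 CPM and Egr1 at 23.9 and 15.9 CPM.

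**Figure D5:**
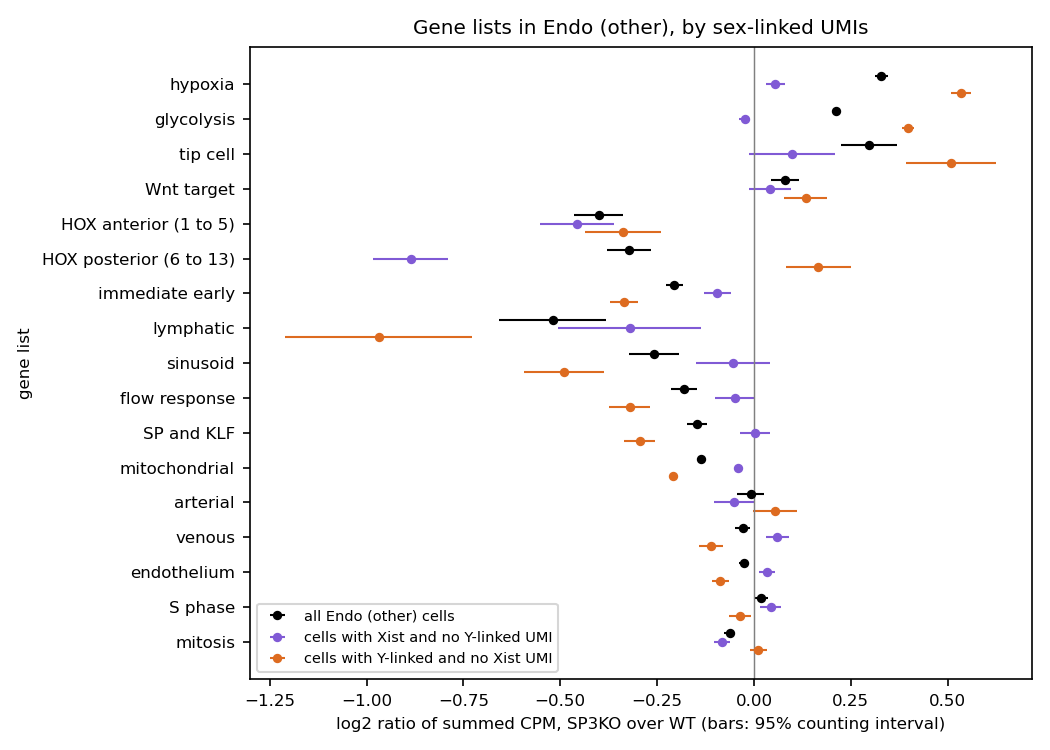
Log2 ratio of SP3KO over WT of the summed levels of 17 gene lists within Endo (other), with 95% intervals of counting error. Black points are all cells, purple points Xist cells and orange points Y cells. Hypoxia and glycolysis lie near 0 in purple and at 0.53 and 0.40 in orange, and posterior HOX genes lie at -0.89 in purple and 0.17 in orange.

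The lists of vessel identity genes had medians nearer 0. The venous list had 1 of 6 members above 0 and a median of -0.12, with sums of 1533 CPM in WT and 1502 CPM in SP3KO, and the arterial list had 10 of 14 above 0 and a median of 0.06. Nos3, the endothelial nitric oxide synthase, was 28.1 and 28.4 CPM, a ratio of 0.01 (-0.13 to 0.15). Cav1, the coat protein of caveolae, was 21.96 and 28.87 CPM, a ratio of 0.39 (0.25 to 0.54), and Klf2, a factor induced by flow, 301 and 237 CPM, a ratio of -0.35 (-0.39 to -0.30). Jag2, a Notch ligand, was 8.08 and 13.4 CPM, a ratio of 0.73 (0.49 to 0.96). Sp1 and Sp4, relatives of SP3, had ratios of 0.03 and -0.03.

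Markers of other cell types were also summed. Macrophage genes held 7 UMIs in WT and 12 in SP3KO, with Fcgr1 and Adgre1 at 0. Megakaryocyte genes summed to 7.68 and 5.16 CPM, a ratio of -0.57 (-0.88 to -0.27), with both measured members below 0. Erythroid genes summed to 31.1 and 27.1 CPM, neural genes to 88.4 and 89.9 CPM, mesenchyme genes to 7.61 and 7.17 CPM and epithelium genes to 1.75 and 1.10 CPM. Neural genes were above venous cells, at 52.2 and 33.0 CPM, in 4 of 4 measured members in both libraries and below EHT cells, at 334 and 219 CPM, and mesenchyme genes were above venous cells, at 2.62 and 2.70 CPM. Sub-cluster 8 held 736 of 5280 neural UMIs (13.9%), so that most lay in other cells of the class.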

How the data were processed

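Single endothelial cells of WT and SP3KO E10.5 dorsal aorta regions were measured in 1 library per genotype. The authors ran Cell Ranger (its version not given in the sources used here) on mm10 (GRCm38), kept barcodes with at least 1000 UMIs and 1000 genes, and removed contaminating types such as erythroid progenitors. They projected the cells onto a reference of the transition and named each cell by its 3 nearest neighbours, ties being drawn at random. The deposited matrix held raw UMI counts per gene and cell for 27514 genes, and its sums were 0 to 197 UMIs below the deposited total counts per cell. The deposited annotation also gave the fraction of mitochondrial UMIs, printed here as a percent. How the authors treated doublets is not stated, and no doublet caller was run. Samples were grouped by the genotype in the labels.

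UMIs were summed per class and library and scaled by total UMIs to CPM. Log2 ratios have exact conditional intervals, levels exact Poisson and shares exact Clopper-Pearson intervals. A count of 0 was replaced by a floor of 3 UMIs per group, and no ratio was given where both groups were at or under it. Genes needed 200 UMIs, list members 50. PCR and cell sampling are not covered by the intervals. Named genes were Sp3, the class markers, the 12 highest and 12 lowest by ratio over the class sums (by the value nearest 0, of which 1 at either end is not reported here) and by SP3KO over WT, the 3 most abundant and the extreme members of each list, the 10 leading genes of each sub-cluster and genes the study names for these vessels. Other list members printed, Acta2, Actc1, Myog, Cnn1, Pdgfrb and Pdpn among them, were chosen after their values were seen. The 43 lists hold 432 genes, all in the matrix, and the rows of 11 symbols that stood on more than one row were left out of counts of genes. The members, lists and rules were chosen with earlier results of these data known. The arterial and venous score used the 13 and 5 genes that the study lists for it. Cells were clustered with Leiden (15 neighbours, 20 components, 2000 variable genes without cell cycle genes, resolution 0.5).

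Alternatives were edgeR (4.0.16) and DESeq2 (1.42.0) scaling factors, other gene minimums, cells weighted alike, cells of 5000 to 40000 UMIs, cells of at most 10% mitochondrial UMIs, thinning to 5000 UMIs, leaving out cells with 3 or more UMIs of other types' markers, and sub-clusters weighted alike. The splits by sex-linked UMIs and leaving out sub-clusters 4 or 7 and 8, or Lyve1 or Myl7 from their lists, were added after seeing the data. Weighting sub-clusters alike gave sub-cluster 8, of 28 cells, as much weight as sub-cluster 1, of 678. No count test was run. Promoters came from RefSeq on GRCm38.p6, and coordinates from the GRCm38.p6 gene table, which held 48 of the 49 genes named by size of ratio, Sp3 included, by symbol. Python 3.11.15, scipy 1.17.1, igraph 0.11.9, leidenalg 0.10.2 and R 4.3.3 were used, and the functions for ratios and intervals were tested on simulated data.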

Additional observations from a re-analysis of the deposited data

Results flagged for a closer look

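The following ratios of SP3KO over WT within Endo (other) lay on the opposite side of 0 from their counterpart in another group of cells. The differences in direction were not tested, since each genotype had 1 library. For Car2 the log2 ratio was 0.80 in Endo (other) and -0.24 in EHT cells, and within Endo (other) it was 1.48 in cells with Xist and no Y-linked UMI and -0.66 in cells with Y-linked and no Xist UMI.

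The summed levels of several lists also had opposite signs in these cells. Posterior HOX genes were at -0.89 in Xist cells and 0.17 in Y cells, and glycolysis genes at -0.02 and 0.40. Endocardium genes were at -0.15 and 0.16, imprinted growth genes at -0.06 and 0.06. For these lists only the sums changed sign. The medians of their members were 0.50 and 0.025 for endocardium and 0.029 and 0.032 for imprinted growth genes. In the other direction, venous genes were at 0.06 in Xist cells and -0.11 in Y cells, VEGF and angiopoietin genes at 0.03 and -0.10, the endothelium list at 0.03 and -0.09 and S phase genes at 0.04 and -0.04.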

How the results depend on the processing

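The 68 genes higher in SP3KO became 106 with cells weighted alike, 228 with cells thinned to 5000 UMIs, 105 without cells that held markers of other types, 221 with sub-clusters weighted alike, 28 and 240 at gene minimums of 500 and 50 UMIs, and 133 in Xist cells and 162 in Y cells. The 198 genes lower in SP3KO became 403 with thinning, 401 with sub-clusters weighted alike, 87 and 516 at the minimums of 500 and 50 UMIs and 422 in Y cells. These settings change the UMIs behind each gene or the genes tested, and the cause of each shift was not tested. Scaling factors gave 70 and 71 higher and 189 and 187 lower genes. Of 36 lists with at least 3 measured members, 22 had a median above that of all genes, and 14 with cells weighted alike.

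Among lists whose median was past 0.1 in size, 10 medians changed sign under an alternative, and another 36 sign changes began within 0.1 of 0. In Xist cells the venous median was 0.00423, the sinusoid median 0.0711 and the glycolysis median -0.0770. In Y cells the posterior HOX median was 0.16, the hemogenic median 0.12 and the erythroid median 0.0118, and the ratio of Car2 was -0.66. With sub-clusters weighted alike the capillary median was 0.0169, the hemogenic median 0.0541 and the anterior HOX median 0.00833, and without sub-clusters 7 and 8 the lymphatic median was 0.0643. Over all pairs of a named gene and an alternative, the ratio between the libraries stayed within counting error in 258 and moved without a change of sign in 41, among them Myl7 at 0.44 without cells with other markers, Camk1 at -0.64 and Lyve1 at -0.56 with sub-clusters weighted alike. The genes past the threshold against all class sums numbered 16 to 21 higher and 24 to 42 lower among those shared with the 22 and 45. No paired analysis was possible because each genotype had 1 library. Depth limited the smaller sub-clusters and genes near the floor of 3 UMIs.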
